A study of Mus musculus with 12 samples.

Results

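ATAC-seq domains that were listed after induction of Hoxc6 and after induction of Hoxc9, and in no other list of the series, numbered 358. They are the domains of the iHoxc9 list that were 150 bp or wider, lay on chromosomes 1 to 19, X and Y, overlapped a domain of the iHoxc6 list by at least 1 bp, and overlapped nothing in the lists of EBs, progenitors, the no Dox control or iHoxc10. The iHoxc9 list held 63504 domains on these chromosomes, of which 31062 were 150 bp or wider. Membership was set by the lists themselves, so presence in iHoxc6 and iHoxc9 and absence elsewhere is a description and not a finding. Being absent from a list means that no domain was called there. It is not a measurement of closed chromatin, because the lists hold no signal.

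The assay, ATAC-seq, uses the Tn5 transposase to insert adapters into DNA that nucleosomes leave free. It was run on 12 samples in 6 groups of mouse embryonic stem cells on their way to spinal motor neurons. Embryoid bodies (EBs) and progenitors came from the Ainv15(iCre) line, the progenitors after 2 days in retinoic acid (RA, 1 µM) and the Hedgehog agonist SAG (0.5 µM). The iHoxc6, iHoxc9 and iHoxc10 groups came from the Ainv15(iFlag.Hoxc6), Ainv15(iFlag.Hoxc9) and Ainv15(iFlag.Hoxc10) lines after 4 days of RA and SAG, and doxycycline (Dox, 3 µg/mL) was present for the last 48 h to switch on the transgene. The no Dox control was the Ainv15(iFlag.Hoxc6) line at the same day of RA and SAG without Dox. Each transgene is a Flag-tagged copy at the Hprt locus on the X chromosome, and its Dox-driven promoter is not restricted to motor neurons. The cultures hold motor neurons and interneurons, and in a mixed culture, opening in fewer cells and weaker opening in every cell cannot be told apart.

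One list was deposited per group, made from both of its samples, so no value here has a replicate error and no difference could be tested against the spread between replicates. Intervals are 95% Wilson intervals of shares, or exact Poisson intervals of match densities, and cover the counting of domains or matches only. Read depth is unknown. The lists differed in length, from 56232 domains in iHoxc10 to 94875 in EBs, and in narrow domains. Domains under 50 bp made up 36.5% of the iHoxc6 list, 30.2% of the iHoxc9 list and 15.7% of the iHoxc10 list. The no Dox list shares its cell line with iHoxc6 alone, carries another day in its name than in its label and has additional columns, so cell line, sample series and calling settings cannot be told apart from the absence of Dox. As a check of the labels, 3 of 4 pluripotency genes had a domain within 1 kb of a transcription start site (TSS) in EBs and 0 of 4 in each day 4 list. All 6 motor neuron lineage genes had one in every list except iHoxc9, where 5 did. This includes EBs, so these genes did not separate the stages. Of 4 interneuron genes, 2 to 4 had one in each list. Of 2 glia genes, 1 had one in each list. Of 2 mesoderm genes, 2 had one in EBs and progenitors and 1 in each day 4 list. Of 2 endoderm genes, 1 had one in EBs, progenitors, no Dox and iHoxc6, and 0 in iHoxc9 and iHoxc10.

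Hox genes encode homeodomain transcription factors that give cells along the body axis their position. HOXC6, of the central group, marks brachial motor neurons that innervate the forelimb, and HOXC9, of the posterior group, marks thoracic motor neurons. Central homeodomains prefer sites with a TAAT core and posterior homeodomains prefer TTTAT, which reads ATAAA on the other strand, and both can bind next to the TALE-class cofactors PBX and MEIS.

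The sequences below give the central 200 bp of 11 of the 358 domains, in GRCm38 (mm10) on the plus strand. They show where the Hox strings lie within the domains. Capitals mark matches, on either strand, to a central Hox string, a posterior Hox string or the PBX-Hox string TGATNNAT. The 6 central strings were TAATAA or TAATAG or TAATGA or TAATGG or TAATTA or TAATTG. The 9 posterior strings were AAATAAA or ACATAAA or ATATAAA or CAATAAA or CCATAAA or CTATAAA or TAATAAA or TCATAAA or TTATAAA. The posterior string TAATAAA contains the central string TAATAA, so one stretch can count for both. The first 3 domains have the most Hox matches per kb, the next 2 are the widest, and the others are the widest domain nearest to a gene of the motor neuron identity, motor column, Hox, TALE cofactor, axon guidance and adhesion lists, in that order. The name before each is the nearest or host gene.
Pdha2, chr3:140663732-140663931 (+): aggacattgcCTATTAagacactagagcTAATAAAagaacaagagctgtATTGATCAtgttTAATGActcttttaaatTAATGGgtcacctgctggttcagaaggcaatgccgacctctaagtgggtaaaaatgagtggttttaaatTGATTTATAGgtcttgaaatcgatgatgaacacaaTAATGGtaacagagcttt
Rnd3, chr2:50793146-50793345 (+): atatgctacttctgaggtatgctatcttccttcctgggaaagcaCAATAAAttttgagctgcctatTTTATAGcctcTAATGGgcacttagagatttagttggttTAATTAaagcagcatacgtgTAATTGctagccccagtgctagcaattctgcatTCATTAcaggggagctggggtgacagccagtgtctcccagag
Nab1, chr1:52436213-52436412 (+): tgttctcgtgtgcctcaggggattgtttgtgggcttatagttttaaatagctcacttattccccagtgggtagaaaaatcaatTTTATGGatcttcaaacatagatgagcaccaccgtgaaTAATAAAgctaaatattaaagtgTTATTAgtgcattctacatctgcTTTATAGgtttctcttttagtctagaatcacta
Gm26657, chr4:56533298-56533497 (+): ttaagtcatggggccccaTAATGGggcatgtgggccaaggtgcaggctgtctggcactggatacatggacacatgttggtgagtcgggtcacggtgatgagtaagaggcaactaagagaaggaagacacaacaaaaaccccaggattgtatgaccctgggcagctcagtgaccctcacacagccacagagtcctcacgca
Dcdc5, chr2:106038215-106038414 (+): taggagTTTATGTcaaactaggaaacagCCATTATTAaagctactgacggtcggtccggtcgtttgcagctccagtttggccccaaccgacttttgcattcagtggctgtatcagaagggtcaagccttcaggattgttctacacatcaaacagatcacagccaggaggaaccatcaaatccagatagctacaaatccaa
Isl1, chr13:116633455-116633654 (+): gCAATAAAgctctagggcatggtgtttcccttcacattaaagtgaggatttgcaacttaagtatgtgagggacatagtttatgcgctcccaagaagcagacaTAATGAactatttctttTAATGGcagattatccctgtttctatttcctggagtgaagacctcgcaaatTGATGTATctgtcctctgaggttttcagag
Gfra1, chr19:58118812-58119011 (+): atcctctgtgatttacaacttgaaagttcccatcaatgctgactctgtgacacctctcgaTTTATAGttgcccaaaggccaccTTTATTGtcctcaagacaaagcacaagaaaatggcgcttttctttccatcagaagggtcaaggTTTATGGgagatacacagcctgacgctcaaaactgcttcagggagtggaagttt
Hoxc6 intron, chr15:103009963-103010162 (+): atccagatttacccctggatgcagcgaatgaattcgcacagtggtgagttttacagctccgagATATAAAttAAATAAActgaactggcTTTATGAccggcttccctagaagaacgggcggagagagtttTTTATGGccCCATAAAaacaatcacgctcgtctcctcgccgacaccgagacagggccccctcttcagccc
Pknox2, chr9:37121952-37122151 (+): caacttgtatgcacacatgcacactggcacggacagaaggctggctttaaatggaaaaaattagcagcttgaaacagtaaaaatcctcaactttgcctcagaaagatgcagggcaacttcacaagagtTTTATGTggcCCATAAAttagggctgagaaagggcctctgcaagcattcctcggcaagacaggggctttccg
Epha5, chr5:85044226-85044425 (+): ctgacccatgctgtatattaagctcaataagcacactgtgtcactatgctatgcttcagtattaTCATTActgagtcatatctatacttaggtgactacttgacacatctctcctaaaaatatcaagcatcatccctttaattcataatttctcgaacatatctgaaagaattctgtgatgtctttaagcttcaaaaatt
Cdh6, chr15:14422826-14423025 (+): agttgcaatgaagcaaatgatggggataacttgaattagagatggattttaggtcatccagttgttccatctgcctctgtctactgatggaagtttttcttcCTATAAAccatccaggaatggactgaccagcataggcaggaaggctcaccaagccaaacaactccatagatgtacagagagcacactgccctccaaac

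The window near Pdha2 held 5 central, 2 posterior and 2 PBX-Hox matches, and the window near Rnd3 held 4 central and 2 posterior matches. The window near Nab1 held 2 central and 3 posterior matches. The widest domain, 720 bp near Gm26657, held 1 central match in its central 200 bp and no posterior match there, and 2 posterior matches over its whole width. The 11 windows were chosen by match density, width or gene, so their contents are examples and are no estimate for the 358.

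The PBX-Hox string with a posterior core, TGATTTAT, is the form in which a PBX half-site and a posterior Hox half-site lie side by side. It is shown for 9 wide domains as 30 bp windows, each printed 5′ to 3′ on the strand given in brackets, with the string in capitals.
Cdh6, chr15:14423128-14423157 (-): tttctatcaagTGATTTATtgctacaaaca
Cblb, chr16:51475986-51476015 (-): ccagtgtccacTGATTTATttaggttcagc
Lrrn1, chr6:107746929-107746958 (-): tgttggaccacTGATTTATtacagccttgg
Nova1, chr12:46722554-46722583 (-): agcaacttttaTGATTTATaggctcatttg
4931408C20Rik, chr1:27278077-27278106 (+): gtcttgggtgcTGATTTATgatcattcact
Kdm8, chr7:125196575-125196604 (+): cacacttagagTGATTTATccagtggcagg
Rpl10l, chr12:66113569-66113598 (+): tatagggtataTGATTTATtcatagacggc
Klf6, chr13:5537815-5537844 (-): aggaattcagaTGATTTATaatgtgcttaa
Robo1, chr16:71831202-71831231 (-): atttattgattTGATTTATcggtttggaat

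The domains were 150 to 720 bp wide with a median of 254.5 bp. The iHoxc6 domains that overlapped them were mostly much narrower, with a median of 57 bp, quartiles of 39 and 185 bp and a range of 14 to 962 bp. Of the 358, 169 (47.2%) were matched by an iHoxc6 domain under 50 bp, 75 (20.9%) by one from 50 to under 150 bp and 114 (31.8%) by one of 150 bp or wider. In 318 of the 358 the iHoxc9 domain was the wider of the pair, and in 231 the iHoxc6 domain lay wholly inside it. The overlap had a median of 49 bp, which was a median of 21.5% of the iHoxc9 domain, and 98 domains were overlapped over 50% or more of their width. The rule asked for 150 bp on the iHoxc9 side and for no width on the iHoxc6 side, so part of this asymmetry follows from the rule. Of the 358, 354 met 1 iHoxc6 domain and 4 met 2.

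The same iHoxc6 widths in the other classes of iHoxc9 domains gave a scale for this. In the 419 iHoxc9 domains that were listed in all 3 induced lines and in no uninduced list, the iHoxc6 domain had a median width of 157 bp, and 27.4% were under 50 bp. In the 26972 iHoxc9 domains that were also in the iHoxc6 list and in at least 1 uninduced list, the median was 566 bp and 2.36% were under 50 bp. These medians could not be tested across replicates. With every list reduced to its 56232 widest domains, the rule gave 286 domains with a median iHoxc6 width of 184 bp, and the other classes were not recomputed. That cut drops the narrowest iHoxc6 domains by design, so the higher median does not show an effect of list length. In the opposite direction, 281 iHoxc6 domains of 150 bp or wider overlapped an iHoxc9 domain and no domain of the other 4 lists. The 358 met 362 distinct iHoxc6 domains, 0.397% of that list, and were 0.564% of the iHoxc9 list.

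The rule left 1956 iHoxc9 domains before iHoxc6 was asked for, and 358 of these, 18.3% (16.7 to 20.1), overlapped an iHoxc6 domain. Over all iHoxc9 domains of 150 bp or wider the share was 89.3%. For a local scale, windows of the same width were placed 5 kb to either side of each of the 1956 domains, where 1.92% (1.53 to 2.40) of 3912 windows met an iHoxc6 domain. With iHoxc6 domains under 50 bp alone, 8.74% (7.57 to 10.1) of the domains and 0.332% (0.194 to 0.568) of the windows were met. With iHoxc6 domains of 150 bp or wider, the shares were 5.83% (4.87 to 6.96) and 1.15% (0.861 to 1.54). These shares describe the contrast that the rule used and are given as a scale only. The median distance between the centres of an iHoxc9 domain and its iHoxc6 domain was 61 bp.

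**Figure D1:**
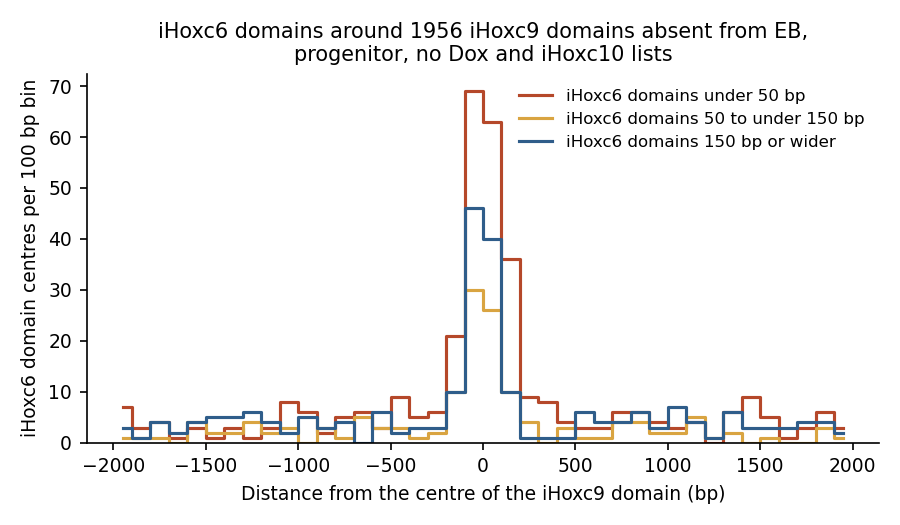
The x axis gives the distance in bp from the centre of 1956 iHoxc9 domains that are absent from the 4 excluded lists (EB, progenitor, no Dox and iHoxc10), and the y axis the number of iHoxc6 domain centres per 100 bp bin, for 3 width classes of iHoxc6 domains. The iHoxc6 domains under 50 bp number 69 and 63 in the bins on either side of the centre and 0 to 9 in each bin beyond 500 bp.

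The thresholds of the rule left some domains close to either side. Of the 358, 19 were under 160 bp wide, and 36 iHoxc9 domains from 140 to under 150 bp met the rest of the rule. Overlaps of 10 bp or less with an excluded list kept out 10 domains, 3 of the 358 had an excluded domain within 10 bp, and the smallest such gap was 4 bp. An iHoxc6 overlap of 10 bp or less brought in 6 of the 358, and 5 further domains had an iHoxc6 domain within 10 bp without overlap. Asking for an iHoxc6 domain of 150 bp or wider left 114 domains, and leaving the no Dox list out of the rule gave 704.

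Many of the 358 had a domain of an excluded list nearby, as did other iHoxc9 domains that those lists did not hold. The nearest domain of any of the 4 excluded lists was a median of 4.16 kb away, and 55.0% (49.8 to 60.1) of the 358 had one within 5 kb. For the 1598 domains of the iHoxc9 list alone, which met no domain of the other 5 lists, the median was 5.18 kb and the share 48.9% (46.4 to 51.3). By list, the median distance was 9.98 kb to a progenitor domain, 10.9 kb to a no Dox domain, 11.4 kb to an EB domain and 17.3 kb to an iHoxc10 domain. Over all iHoxc9 domains of 150 bp or wider that the list in question did not hold, the medians were smaller. They were 9.455, 10.2, 10.1 and 14.8 kb in the same order. The iHoxc10 list was the shortest and had the largest median distance, and list length and distance cannot be told apart here. Within 1 kb, 13.7% (10.5 to 17.6) had a no Dox domain, 10.9% (8.07 to 14.5) a progenitor domain, 9.22% (6.64 to 12.7) an iHoxc10 domain and 8.10% (5.70 to 11.4) an EB domain. Over all iHoxc9 domains that the list did not hold, these shares were 14.3%, 14.3%, 14.1% and 11.2%. Only the iHoxc10 share of these lay outside the interval of the 358, and it was higher.

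**Figure D2:**
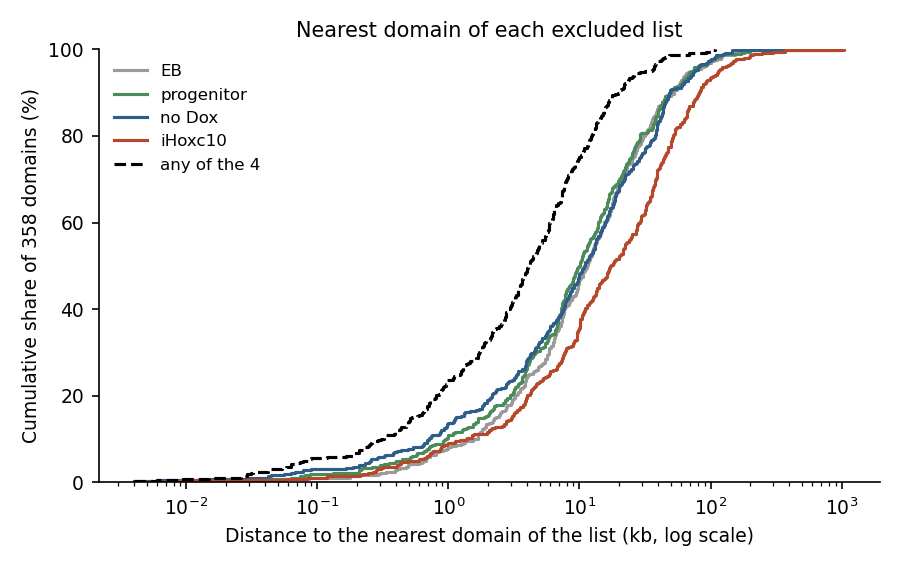
The x axis gives the distance in kb, on a log scale, from a domain to the nearest domain of a list, and the y axis the cumulative share of the 358 domains in percent. Solid lines are the lists of EBs, progenitors, no Dox and iHoxc10, and the dashed line is the nearest domain of any of the 4. The curves of EB, progenitor and no Dox run close together with medians of 9.98 to 11.4 kb. The iHoxc10 curve has a median of 17.3 kb and lies to their right at larger distances, but not within 1 kb, where 9.22% have an iHoxc10 domain and 8.10% an EB domain.

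One of the 358 lay in Hoxc6 itself, at chr15:103009930-103010195 (GRCm38), from the end of a coding exon into the intron that follows it. It was 266 bp wide, with 76 bp on coding sequence of Hoxc6. The iHoxc6 domain that overlapped it, chr15:103009634-103009972, was 339 bp wide and lay wholly on coding sequence, and all 43 bp of the overlap were coding. The iHoxc6 line carries a Hoxc6 transgene whose coding sequence is the same, and reads of the transgene and of the native exon cannot be told apart there. For this domain the iHoxc6 side of the rule is therefore not a measure of the native locus. Its intronic part, which the iHoxc9 list held and the iHoxc6 list did not, had 5 posterior matches, the highest number in the central 200 bp of any of the 358. None of the 358 lay in Hoxc9, Hoxc10 or Hprt.

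The posterior Hox strings marked most of the 358. At least 1 lay in the central 200 bp of 265 domains, 74.0% (69.2 to 78.3), against 45.8% (42.2 to 49.5) of the 716 windows 5 kb to either side. Of all iHoxc9 domains of 150 bp or wider, 25.5% held one, and 54.8% after weighting these to the GC content of the 358. The same strings with their letters reversed, which have the same base composition, were found in 38.0% (33.1 to 43.1) of the 358 and in 45.4% (41.8 to 49.1) of the flanking windows, and in 17.7% of all iHoxc9 domains or 38.8% with weighting. The interval of the posterior strings at the domains lay above that of the flanks, while those of the reversed strings overlapped. AAATAAA reads the same in both directions and counts in both sets.

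The central Hox strings, the kind that HOXC6 and its group prefer, differed less from their surroundings. They were found in 239 domains, 66.8% (61.7 to 71.4), in 48.7% (45.1 to 52.4) of the flanking windows, in 29.6% of all iHoxc9 domains and in 58.5% of these after weighting for GC content. Their reversed letters were found in 56.7% (51.5 to 61.7) of the 358, 46.9% (43.3 to 50.6) of the flanks and 25.5% of all iHoxc9 domains, or 51.3% with weighting. For the central strings and for their reversed letters, the interval at the domains lay above that of the flanks and above the weighted share. A rise over the surroundings was thus not particular to the central strings. Both kinds of match were present in 180 (50.3%) of the 358, a posterior match alone in 85, a central match alone in 59 and neither in 34 (9.50%). Of the 358, 113 held 2 or more posterior matches.

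**Figure D3:**
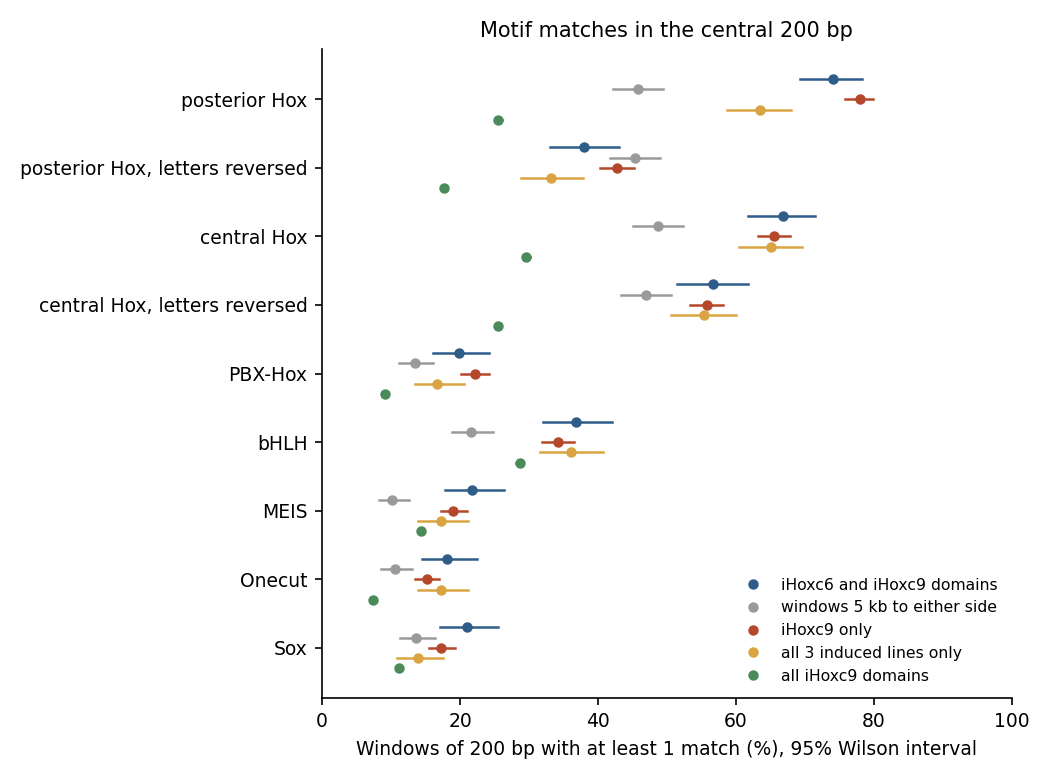
The x axis gives the share, in percent, of 200 bp windows with at least 1 match, and each row is a set of strings. Points are the 358 domains (n = 358), the windows 5 kb to either side of them (n = 716), domains of the iHoxc9 list alone (n = 1598), domains of all 3 induced lines alone (n = 419) and all iHoxc9 domains (n = 31062), with lines for 95% Wilson intervals that cover counting only. The posterior strings reach 74.0% of the 358 and their reversed letters 38.0%.

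Among single posterior strings, CAATAAA was found in 17.3% (13.8 to 21.6) of the 358, against 4.96% of all iHoxc9 domains and 11.4% of these weighted for GC content. CCATAAA was found in 17.0% (13.5 to 21.3), against 4.57% and 9.91%. AAATAAA, the only one of the 9 below its GC-weighted share, was found in 10.1% (7.35 to 13.6) against 12.6%. Of all strings of 6 bases, CATAAA, which ends the strings with C in second place, stood farthest above the GC-weighted share of all iHoxc9 domains, with 44.1% (39.1 to 49.3) of the 358 against 28.9%. Among the central strings, TAATGG was found in 23.5% (19.4 to 28.1) against a GC-weighted 16.0%, and TAATTG in 14.0% (10.8 to 17.9) against 13.8%. In the domains of iHoxc9 alone, TAATGG was found in 21.2% and TAATTG in 16.0%. CATAAA was found there in 50.1% and CCATAAA in 20.3%, both higher than in the 358. Of the 9 posterior strings, only TTATAAA was lower there, with 5.76% against 6.98% of the 358. The high shares of posterior strings were thus not particular to the 358.

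Both kinds of match rose towards the centre of the domains. Posterior matches numbered 5.53 and 6.48 per kb in the bins of 100 bp on either side of the centre and 4.19 and 4.16 per kb in the next bin outwards on each side. Their reversed letters numbered 2.46 and 2.71 per kb at the centre and 3.32 and 3.77 per kb in the next bins. Central matches numbered 6.06 and 5.42 per kb at the centre, and 4.27 and 4.30 per kb in the next bins. For both kinds, the 2 bins at the centre were above every other bin within 1 kb. The reversed central strings numbered 4.78 and 4.27 per kb at the centre and 3.18 to 4.58 per kb in the other bins. In the 1598 domains of iHoxc9 alone, posterior matches numbered 7.82 and 7.25 per kb at the centre and 4.89 and 4.69 per kb in the next bins. Central matches there numbered 5.71 and 5.98 per kb at the centre and 4.31 and 4.49 per kb in the next bins. The rise towards the centre was thus not particular to the 358.

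**Figure D4:**
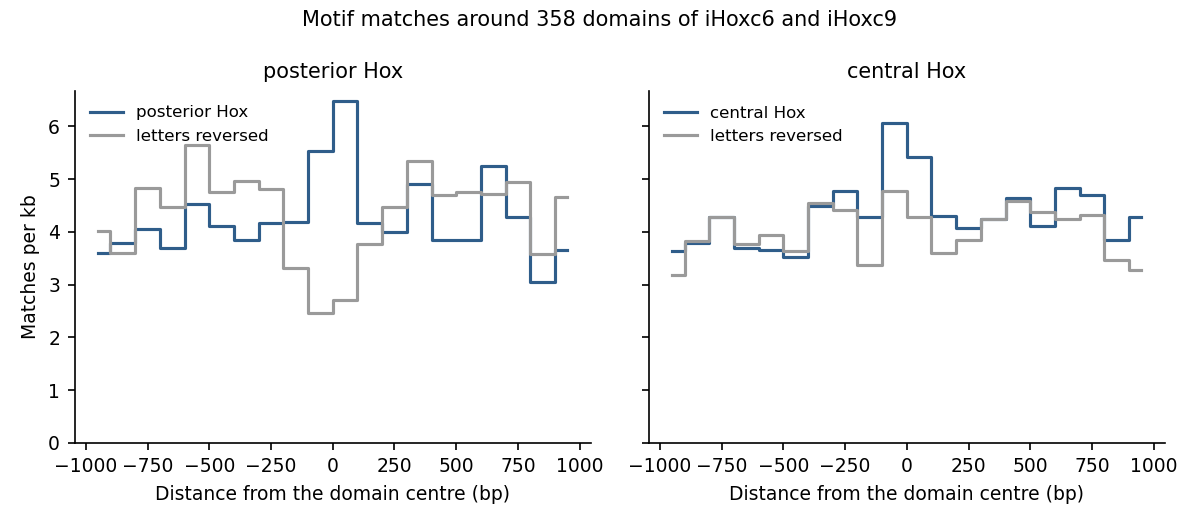
The x axis gives the distance in bp from the centre of the 358 domains in bins of 100 bp, and the y axis the number of matches per kb, for posterior Hox strings on the left and central Hox strings on the right, each with the same strings in reversed letters in grey. Posterior matches reach 6.48 per kb beside the centre, where their reversed letters number 2.46 per kb, and central matches reach 6.06 per kb beside the centre, where their reversed letters number 4.78 per kb.

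In posterior matches the 358 lay between the other classes of iHoxc9 domains that no uninduced list held. The share was 78.0% (75.9 to 79.9) in the 1598 domains of iHoxc9 alone and 72.1% (68.4 to 75.6) in the 603 domains of iHoxc9 and iHoxc10 alone, and both intervals overlapped that of the 358. In the 419 domains of all 3 induced lines it was 63.5% (58.8 to 68.0), an interval below that of the 358. These shares were not weighted for GC content, whose median was 45.5% in the 419 and 42.5% in the 358. The reversed letters were found in 33.2% (28.8 to 37.8) of the 419 and 38.0% (33.1 to 43.1) of the 358. Posterior matches were found in 39.9% of the flanks of the 419 and 45.8% of those of the 358. The central strings were found in 65.5% (63.2 to 67.8), 62.5% (58.6 to 66.3) and 65.2% (60.5 to 69.6) of the 3 other classes in the same order, each overlapping the interval of the 358. Differences between classes were not tested, since each class comes from 1 set of lists.

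The shares were also taken by the width of the iHoxc6 domain. Posterior matches were found in 77.5% (70.6 to 83.2) of the 169 domains with an iHoxc6 domain under 50 bp, 76.0% (65.2 to 84.2) of the 75 with one from 50 to under 150 bp and 67.5% (58.5 to 75.4) of the 114 with one of 150 bp or wider. Central matches ran the other way, with 64.5% (57.0 to 71.3), 68.0% (56.8 to 77.5) and 69.3% (60.3 to 77.0). Neighbouring intervals overlapped in both series, so the order is a description. By the width of the iHoxc9 domain, posterior matches were found in 67.4% (57.4 to 76.0) of 95 domains under 200 bp, 72.1% (64.0 to 78.9) of 136 domains from 200 to under 300 bp and 81.1% (73.4 to 87.0) of 127 domains of 300 bp or wider. The searched window was 200 bp in each, so it ran past the edges of the narrowest domains, and the lowest and highest interval overlapped. In the same order of width, the reversed posterior strings were found in 34.7%, 35.3% and 43.3%, and the median GC content was 43.5%, 43% and 41%.

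Each domain was also divided into the stretch that the iHoxc6 domain covered and the rest. The covered stretches came to 33.7 kb with 153 posterior matches, 4.53 per kb (3.84 to 5.31), and the rest to 67.9 kb with 412, 6.07 per kb (5.50 to 6.69). Where the iHoxc6 domain was under 50 bp, the densities were 3.48 per kb (2.13 to 5.38) and 6.38 per kb (5.63 to 7.20). A match had to lie wholly inside a stretch, which leaves fewer possible positions in a narrow stretch than in a wide one, and the reversed letters were also less dense in the covered stretches, with 1.69 per kb (1.28 to 2.19) against 2.90 per kb (2.51 to 3.34). Central matches were equally dense within the intervals, with 5.57 per kb (4.80 to 6.43) in covered stretches and 5.25 per kb (4.72 to 5.82) in the rest. By class, central matches numbered 3.31 per kb (1.99 to 5.17) in covered stretches and 5.24 per kb (4.57 to 5.99) in the rest where the iHoxc6 domain was under 50 bp, and 6.11 per kb (5.12 to 7.25) and 4.79 per kb (3.58 to 6.26) where it was 150 bp or wider. Their reversed letters had the same order, with 2.27 and 4.25 per kb in the first class and 4.31 and 3.52 per kb in the second. Posterior matches numbered 4.45 per kb (3.60 to 5.43) and 5.60 per kb (4.29 to 7.18) where the iHoxc6 domain was 150 bp or wider.

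The PBX-Hox string TGATNNAT was found in 19.8% (16.0 to 24.3) of the 358, against 13.4% (11.1 to 16.1) of the flanks and 9.06% of all iHoxc9 domains. After weighting for GC content the share of all iHoxc9 domains was 18.4%, within the interval of the 358. Its form with the posterior core, TGATTTAT, was found in 6.98% (4.77 to 10.1) of the 358, 1.26% (0.663 to 2.37) of the flanks, 2.41% of all iHoxc9 domains and 5.45% of these with weighting. It was found in 10.7% (6.84 to 16.2) of the domains with an iHoxc6 domain under 50 bp, in 2.67% (0.734 to 9.21) of those with one from 50 to under 150 bp and in 4.39% (1.89 to 9.86) of those with one of 150 bp or wider, and these intervals overlapped. TGACAG, the core of MEIS sites, was found in 21.8% (17.8 to 26.4) of the 358, 10.2% (8.19 to 12.6) of the flanks and 14.3% of all iHoxc9 domains, or 18.3% with weighting.

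Strings of other families were more frequent in the 358 than in their flanks in several cases, and for each of these the GC-weighted share of all iHoxc9 domains lay inside the interval of the 358. The E-box strings CAGCTG or CAGATG, which proneural and other bHLH factors bind, were found in 36.9% (32.0 to 42.0), in 21.6% (18.8 to 24.8) of the flanks, in 28.6% of all iHoxc9 domains and in 33.0% of these with weighting. ATTGAT, the core of Onecut sites, was found in 18.2% (14.5 to 22.5), in 10.6% (8.56 to 13.1) of the flanks, and in 7.38% of all iHoxc9 domains or 15.2% with weighting. CATTGT, a Sox string, was found in 20.9% (17.1 to 25.5), in 13.7% (11.4 to 16.4) of the flanks, and in 11.1% or 20.1% with weighting. CCCNNGGG, an Ebf core, was found in 6.70% (4.55 to 9.78), in 2.37% (1.49 to 3.77) of the flanks, and in 11.4% of all iHoxc9 domains, a share that fell to 4.62% with weighting. The AP-1 string TGANTCA was found in 9.50% (6.88 to 13.0) against 4.33% of all iHoxc9 domains, or 7.00% with weighting. GATAAG, which zinc finger factors of the family named after it bind, was found in 7.82% (5.47 to 11.1) against 3.55% or 5.64% with weighting, and the POU octamer ATGCAAAT in 3.07% (1.72 to 5.42) against 1.65% or 3.06% with weighting. For these 3 the weighted shares lay inside the intervals of the 358, and these intervals overlapped those of the flanks. By width of the iHoxc6 domain, E-box strings were found in 30.2% (23.8 to 37.5) of the narrowest class and 44.7% (35.9 to 53.9) of the widest, with overlapping intervals.

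The 358 lay far from transcription start sites, and many lay inside genes. Only 4, 1.12% (0.435 to 2.84), were within 1 kb of a protein-coding TSS, against 36.1% of all iHoxc9 domains. Most of the latter are held by an uninduced list, and the rule removes such domains. In the classes that no uninduced list held, the share was 0.751% for iHoxc9 alone, 0.995% for iHoxc9 and iHoxc10 alone and 0.716% for all 3 induced lines. The low share is thus not particular to the 358. Each gene was given 1 TSS, its outermost annotated start, so the starts of other transcripts did not count. The median distance to the nearest protein-coding TSS was 133 kb, with quartiles of 51.8 and 336 kb, against a median of 12.9 kb for all iHoxc9 domains and 141 kb for those of iHoxc9 alone. More than 50 kb separated 271 (75.7%) of the 358 from a TSS, against 33.8% of all iHoxc9 domains and 74.3% of those of iHoxc9 alone. By the annotation at their midpoint, 169 (47.2%) were intergenic, 155 (43.3%) were in an intron of a protein-coding gene, 22 (6.15%) in an intron of a non-coding gene, 4 in a coding exon, 3 in a UTR and 5 in a non-coding exon. Introns of protein-coding genes held 30.8% of all iHoxc9 domains and UTRs 18.1%, and 36.4% were intergenic. A larger share of the 358 than of all iHoxc9 domains thus lay outside genes. This is not particular to the 358. The intergenic share was 51.5% for iHoxc9 alone, 50.9% for iHoxc9 and iHoxc10 alone and 43.0% for all 3 induced lines. The central 200 bp had a median GC content of 42.5%, against 55% over all iHoxc9 domains and 41.5% in those of iHoxc9 alone. The median share of repeat-masked bases was 2.86% against 4.77% of all iHoxc9 domains. An interval from the ranks of the values, 0 to 5.71%, held the latter.

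The 4 domains at promoters lay at Gm7298, Dtl, Tcf21 and Taar2. Tcf21 encodes a bHLH factor of mesodermal organs, Dtl a substrate adaptor of a ubiquitin ligase and Taar2 an olfactory amine receptor. The Dtl domain was 245 bp wide and had a domain of each excluded list within 0.1 kb, so it lay beside domains of all 4. The Tcf21 domain was 179 bp wide, on a coding exon, with a no Dox domain 0.042 kb away and an iHoxc6 overlap of 15 bp. The domains at Gm7298 and Taar2, 289 and 157 bp wide, had no excluded domain within 1 kb, and their iHoxc6 domains were 238 and 246 bp wide.

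Of the 358, 27 (7.54%, 5.23 to 10.8) had their nearest protein-coding TSS in a gene of 12 lists that cover Hox genes, neuronal identity, guidance, adhesion and markers of other cells, against 5.13% of all iHoxc9 domains. Among domains over 50 kb from a TSS the shares were 8.86% and 8.36%. The largest group was adhesion, with 12 domains at 8 of 33 genes, 3.35% (1.93 to 5.77) against 1.03% of all iHoxc9 domains and 4.13% of those of iHoxc9 alone. Many adhesion genes are long and far from their neighbours. Among domains over 50 kb from a TSS the shares were 4.43% and 2.22%. Teneurins, large transmembrane proteins that match synaptic partners, were nearest to 5 of the 12, with 3 at Tenm3, 1 at Tenm2 and 1 at Tenm4. Latrophilin 2 (Adgrl2), of a family of teneurin receptors, and alpha-N-catenin (Ctnna2), which links cadherins to actin, were each nearest to 2. The type II cadherins Cdh6 and Cdh18 and the protocadherin Pcdh7 were each nearest to 1.

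The 3 domains near Tenm3 were 238 to 242 bp wide. One lay in an intron of Tenm3, 153 kb downstream of its TSS, and the others lay 638 and 1730 kb upstream, so the nearest gene is a loose assignment for them. The intronic one held 3 central matches and 1 posterior match, and its iHoxc6 domain was 46 bp wide. The Adgrl2 domains lay in its intron, at 128 kb from the TSS and 506 bp wide, and 846 kb upstream. Both Ctnna2 domains lay in introns of that gene, at 135 and 348 kb from the TSS. The wider, 450 bp, held 2 central, 4 posterior and 2 PBX-Hox matches over its width, and its iHoxc6 domain was 26 bp wide. The Cdh6 domain was among the widest at 587 bp, with 6 posterior matches over its width, and its nearest iHoxc10 domain was 80.9 kb away, against 3.81 to 3.92 kb for the other 3 lists.

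Axon guidance genes were nearest to 4 domains, 1.12% (0.435 to 2.84) against 1.08% of all iHoxc9 domains. These were the ephrin receptor Epha5, the Slit receptor Robo1, the netrin receptor Unc5a and the membrane-bound netrin Ntng1. The Epha5 domain was 591 bp wide and 627 kb from the TSS, and its iHoxc6 domain was 35 bp wide. The Robo1 domain, 393 bp wide, held a PBX-Hox string with the posterior core, and a progenitor domain lay 0.026 kb from it. The Ntng1 domain lay in an intron of the gene, 253 kb from the TSS. A domain of 607 bp in an intron of the semaphorin gene Sema3a was not counted here, because its nearest TSS was that of Speer3.

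Motor neuron identity genes were nearest to 2 domains, 0.559% (0.153 to 2.01) against 0.267%. One lay 324 kb upstream of Isl1, the LIM homeodomain factor that marks newly born motor neurons, and was 229 bp wide with an iHoxc6 domain of 255 bp. It held 2 central matches, 1 posterior match and 1 PBX-Hox match, shown above. The other lay 57.8 kb downstream of the start of Lhx4, a LIM homeodomain factor of motor neuron precursors. Motor column and pool genes were nearest to 2 domains, 0.559% against 0.483%, at Etv1, a marker of motor and sensory subsets, and at Gfra1, which encodes a GDNF co-receptor. The Gfra1 domain, in an intron of Atrnl1 and 337 kb from the TSS, was 359 bp wide, was wholly covered by an iHoxc6 domain of 464 bp and held 3 posterior matches and no central match.

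The TALE cofactor list had 1 domain, 0.279% (0.0493 to 1.57) against 0.364%, in an intron of Pknox2, which encodes a TALE homeodomain protein of the MEIS class. It was 344 bp wide with 4 posterior matches over its width and no central match. The Hox list had 1, the domain in Hoxc6 described above, against 0.132% of all iHoxc9 domains. For that domain the nearest TSS was that of Hoxc4, because each gene was given only its outermost annotated start. Other starts of Hoxc6 transcripts were not considered, so the distance of the domain to those starts is not known here. Progenitor and interneuron factors had 3 (Nfib, Pou4f1 and Zeb2), 0.838% (0.285 to 2.43) against 0.637%. The Notch ligand gene Jag1 was the 1 hit of the proneural and Notch list, 0.279% against 0.515%, and Klf5 that of the pluripotency list, 0.279% against 0.119%. The lists of RA and Hedgehog response, of mesoderm and endoderm and of caudal genes had 0 of 358, which a Wilson interval puts at up to 1.06%, against 0.312%, 0.138% and 0.0708% of all iHoxc9 domains. Apart from adhesion, the interval of each of these lists held the share of all iHoxc9 domains.

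The domains lay on every chromosome searched except Y. They were 1.15% of the iHoxc9 domains of 150 bp or wider. Chromosome 1 held 35 of 2248 (1.56%), chromosome 2 held 34 of 2583 (1.32%), the X chromosome 3 of 734 (0.409%) and the Y chromosome 0 of 35. Of the 358, 14 (3.91%, 2.34 to 6.46) lay within 100 kb of another, and no such share was computed for other iHoxc9 domains. Their nearest genes numbered 324, of which 29 were nearest to 2 or more, and Cxxc4, Jmjd1c, Slc10a2, Olfm4 and Tenm3 to 3 each, the highest number. Around Cxxc4, which encodes a Wnt pathway inhibitor, the 3 domains lay 71.6 and 274 kb upstream and 179 kb downstream of the TSS in introns of non-coding genes, with iHoxc6 domains of 31, 25 and 42 bp. Each of these 3 held 1 or 2 matches of both kinds. Around Jmjd1c, of a histone demethylase family, the domains lay 76.9, 923 and 1111 kb upstream, and those at 76.9 and 923 kb held no Hox match. Around Olfm4, the 3 domains lay 664 to 2019 kb downstream with iHoxc6 domains of 154 to 440 bp, so these neighbours share a gene-poor region and not a gene. The domains near Slc10a2 lay 853 to 1463 kb upstream. Vxn and Sgms1 had 2 each, the Vxn pair 26.0 and 29.5 kb from the TSS in introns of a non-coding gene and the Sgms1 pair in introns of Sgms1, which encodes a sphingomyelin synthase. Mon2, Asph and Gmnc also had 2 each.

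Of the 10 widest domains, 3 were overlapped by an iHoxc6 domain of 150 bp or wider. The widest, near Gm26657, had a no Dox domain 0.063 kb away, while the nearest domain of each of the other 3 excluded lists was 39.8 kb away. The next, 614 bp on a non-coding exon of Dcdc5, held 5 central and 4 posterior matches over its width with an iHoxc6 domain of 114 bp. A domain of 584 bp near 1700008P02Rik held 5 of each. The domain of 593 bp in an intron of Focad was overlapped by an iHoxc6 domain of 362 bp and lay 0.844 kb from a no Dox and 0.432 kb from an iHoxc10 domain. Domains near Nup35 and Cacng3, 567 and 566 bp wide, each held 3 posterior matches over their width with iHoxc6 domains of 26 and 32 bp.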

How the data were processed

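The authors mapped paired-end ATAC-seq reads to mm10 with Bowtie2 2.2.2 and called domains with DomainFinder. The submitters' processing notes also name Picard 2.8.2, without its role, and the caller's thresholds are not given in the sources used here. Per domain, the deposited lists give a chromosome, a start and an end in bp, and no read count, height or score. Starts were taken as 0-based. No source used here gives their base, so a position can be off by 1 bp.

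Domains were compared without merging, and 1 bp of overlap counted as shared. Genes were taken from GENCODE M21, and sequence and repeat masking from the RefSeq copy of GRCm38.p6. Each gene had 1 TSS, the outermost start of its annotation. Strings were searched on both strands in the central 200 bp, in windows 5 kb to either side, and in all iHoxc9 domains of 150 bp or wider, also weighted to the GC content of the 358 in bins of 5 percentage points. This weighting, the division of domains by the iHoxc6 overlap and the width classes were added after the data were examined. Python 3.11.15, NumPy 2.4.6, SciPy 1.17.1 and Matplotlib 3.10.9 were used, and the code was tested on simulated data.

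Named genes were those of the lists nearest to a domain, the 10 nearest to the most domains, those with a domain at the promoter, and those at the 10 widest domains or at printed sequences, except 1 domain that is not reported here. The domains and lists were chosen with earlier results of these data known. Replicate values were not analysed here, so no test was run.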

Additional observations from a re-analysis of the deposited data

How the results depend on the processing

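No paired analysis was possible because each list was made from both samples of its group, and for the same reason no sample could be left out. Over 11 settings of the rule, the number of domains stayed within 1.5 times of 358 in 6. It was 127 for domains of 300 bp or wider, 98 when iHoxc6 had to cover 50% of the domain, 114 with an iHoxc6 domain of 150 bp or wider, 189 with one of 50 bp or wider (chosen after seeing the data) and 704 without the no Dox list. The median iHoxc6 width moved to 227, 231.5 and 112.5 bp under 50% coverage, the 150 bp minimum and without no Dox, and to 184 bp with every list reduced to its 56232 widest domains (equal length). The 150 bp minimum and the equal length setting drop narrow iHoxc6 domains by design. The share within 5 kb of an excluded domain moved to 46.5% (300 bp), 48.1% (no EB list) and 39.2% (equal length). The promoter share moved to 0% (300 bp) and 3.06% (50% coverage).

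The posterior share was 68.5% (100 bp), 81.1% (300 bp), 67.5% (iHoxc6 150 bp), 64.1% (no Dox not used) and 66.1% (equal length), above the reversed strings in each. It was 50.3%, 89.7% and 79.9% over the central 100 bp, 400 bp and the whole domain, and 65.6% without repeat-masked matches. The central share was 73.5% (50% coverage), 42.7%, 83.0% and 73.7%, and the PBX-Hox share 15.3% (50% coverage), 13.2% (iHoxc6 150 bp), 12.3%, 33.8% and 25.1%, the last 3 of each over those same stretches. Median repeat masking was 6.19% at 300 bp. Any listed TSS within 100 kb was found for 2.23%. The share near another domain was 0% (300 bp), 2.04% (50% coverage), 9.23% (no Dox not used), 1.12% (50 kb) and 9.50% (200 kb). The cause was not tested. The other 86 values stayed within the counting interval of the value reported or, for counts, within 1.5 times.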
